A study of Mus musculus with 18 samples.

Results

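Arachidonate 5-lipoxygenase (Alox5) and 6 genes that work around it in eicosanoid synthesis, Alox5ap, Lta4h, Ltc4s, Ptgs1, Ptgs2 and Pla2g4a, were followed in adult neural stem cells (NSCs) under oxidative stress. These 7 genes, of 50600 listed, were looked up by symbol, and the choice was made with the response of Alox5 known. That response is therefore given as a description, without a test. NSCs from the dentate gyrus of C57Bl6J mice aged 6-9 weeks were grown in EGF and FGF2 (passage 6 to 15) and given 500 µM hydrogen peroxide (H2O2) or vehicle for 24 h. Vehicle is water by the labels and PBS by the study's methods. Each treatment had 3 cultures, F5 and F8 from a line of pooled female mice and M9 from a line of pooled male mice, so F5 and F8 are not separate lines. From the RNA of each culture, inputs of 1 ng, 100 pg and 10 pg were taken by dilution, preamplified as full-length cDNA and sequenced, which gave 6 groups of 3 libraries. The 3 inputs of a culture are the same RNA and do not replicate each other.

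Eicosanoids are signalling lipids made from arachidonate, a fatty acid held in membrane phospholipids. Cytosolic phospholipase A2 (Pla2g4a) releases arachidonate. 5-lipoxygenase, helped at the membrane by the activating protein FLAP (Alox5ap), turns it into leukotriene A4, from which Lta4h makes leukotriene B4 and Ltc4s makes leukotriene C4. The cyclooxygenases Ptgs1 and Ptgs2 open the other branch, towards prostaglandins and thromboxane. The leukotriene branch is known best from leukocytes, and mast cells, neutrophils and macrophages carry most of its enzymes.

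At 1 ng, Alox5 was the member that stood higher in H2O2 cultures, by a ratio of 6.13. The phospholipase Pla2g4a and the hydrolase Lta4h stood lower in every H2O2 library. Over all tested genes, every H2O2 library lay above every vehicle library for 18.1%, and below for 19.7%. The 4 remaining members were at the edge of detection in both treatments. No call is counted for Alox5. Of the 2 other members that the CLEAR filter of the study kept at 1 ng, Pla2g4a and Lta4h, limma called 0 at an adjusted p of 0.05, beside 12.7% of the 13692 genes tested, while both were under an unadjusted p of 0.05 and edgeR called 1 and DESeq2 2. At 100 pg limma called 0 of the same 2, beside 1.51% of 12171 genes (1 unadjusted, edgeR 0, DESeq2 1). In the unfiltered (RAW) table, limma called 0 of the 5 other members above the minimum of 1 normalized count at 1 ng (2 unadjusted), beside 6.84% of 22672 genes, and 0 of 6 at 100 pg (1 unadjusted), beside 0.0625% of 22407. The members were picked from this contrast, and nothing is read from these counts. With any 1 vehicle library left out, no gene of the CLEAR tables was called at either input (0), nor without the H2O2 library of F8 at 100 pg. The median log2 fold change of the 3 members kept by CLEAR was -0.44 at 1 ng, against 0.02 over all tested genes, and -0.36 at 100 pg, against 0.01. With 1 member higher and 2 lower, each median is the value of 1 gene, Lta4h at 1 ng and Pla2g4a at 100 pg. Nothing is read from these medians either.

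The libraries held 10032628 to 13051643 counted reads, and 10 genes took 3.99 to 6.19% of them. Values are normalized counts, that is, reads divided by a size factor of the library, and were compared only within an input. The neural stem cell label was checked with 10 markers. All 10, Nes, Sox2, Sox9 and Fabp7 among them, were kept by CLEAR at 1 ng, 9 at 100 pg and 6 at 10 pg. At 1 ng they summed to 6725 to 8597 CPM (reads scaled to the total of the library) in H2O2 libraries and 7129 to 7490 CPM in vehicle libraries. Slc1a3 made up 37.1% of that sum. Among the 10, limma called Vim alone at 1 ng, higher in H2O2 (log2 fold change 0.63, SE 0.15, adjusted p = 0.0355, limma), beside 12.7% of all genes. Hes5 had the largest log2 fold change, -1.58 (SE 0.88, adjusted p = 0.263, limma).

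The stretches directly upstream of the annotated starts are shown for the 3 members that carried reads in every 1 ng library at more than a trace, 1 of them higher and the others lower in H2O2 cultures. They are the 250 bases before the start in RefSeq (GRCm38.p6), read 5′ to 3′ on the strand of the gene, at chr6:116461179-116461428 (minus) for Alox5, chr1:149961291-149961540 (minus) for Pla2g4a and chr10:93453146-93453395 (plus) for Lta4h. Capitals mark the GC box GGGCGG, the motif bound by Sp1, which was searched on both strands.
Alox5: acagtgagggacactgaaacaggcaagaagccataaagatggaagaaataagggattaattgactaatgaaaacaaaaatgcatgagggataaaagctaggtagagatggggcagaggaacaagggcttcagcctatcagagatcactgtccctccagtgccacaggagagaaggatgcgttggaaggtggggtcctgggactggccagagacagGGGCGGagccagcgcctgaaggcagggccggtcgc
Pla2g4a: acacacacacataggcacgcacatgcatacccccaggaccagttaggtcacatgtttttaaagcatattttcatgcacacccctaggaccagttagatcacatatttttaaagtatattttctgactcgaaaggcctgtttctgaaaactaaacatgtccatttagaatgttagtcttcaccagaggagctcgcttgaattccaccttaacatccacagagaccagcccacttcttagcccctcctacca
Lta4h: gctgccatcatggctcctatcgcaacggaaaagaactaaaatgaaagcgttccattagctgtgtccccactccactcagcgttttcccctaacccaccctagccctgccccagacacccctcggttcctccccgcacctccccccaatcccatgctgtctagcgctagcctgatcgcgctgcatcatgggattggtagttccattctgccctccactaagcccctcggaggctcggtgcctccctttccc
The Alox5 stretch held 1 GC box, starting 35 bases before the end, and the others held 0, where 32.7% of all 32851 upstream stretches in the table held at least 1. Bases G and C made up 52.8% of the Alox5 stretch, 43.2% of that of Pla2g4a and 58.8% of that of Lta4h (median of all stretches 52.4%), with 5, 3 and 11 CpG dinucleotides (median 6). The TATA motif TATAAA (12.4% of all stretches), the AP-1 motif TGANTCA (6.75%) and the antioxidant response core TGACNNNGC (10.2%) were found in none of the 3, on either strand. A match of letters is a description and not evidence of binding. Of the 7 members, 6 had an entry in the table.

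Alox5 lies on the minus strand of chromosome 6 (116410077-116461178, GENCODE M21, GRCm38), has 4106 bases of exon and shares no exon base with another gene, so reads without strand can be assigned to it. At 1 ng its normalized counts were 226, 325 and 256 in the H2O2 libraries of F5, F8 and M9, against 56.5, 49.1 and 26.3 in the vehicle libraries of the same cultures. The groups did not overlap, as was the case, with all H2O2 libraries higher, for 18.1% of tested genes. F8 was the highest of the H2O2 libraries, and M9 the lowest of the vehicle libraries. The means were 269 ± 50.9 in H2O2 and 43.9 ± 15.7 in vehicle (SD, n = 3 each), with a log2 fold change of 2.64 (SE 0.31) on the log2(normalized count + 1) scale. Culture by culture, H2O2 stood over vehicle by ratios of 4.01 in F5, 6.63 in F8 and 9.74 in M9, so the spread lay more in the vehicle level than in the H2O2 level. Only Mir22, Ecm1 and Emp3 had larger log2 fold changes among the 13692 genes tested, which places Alox5 at rank 4. A change in the number of cells of a type and a change in RNA per cell cannot be told apart in these bulk libraries.

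The same RNA at 100 pg gave Alox5 values of 266, 345 and 315 in H2O2 libraries of F5, F8 and M9, against 66.7, 22.9 and 35.9 in vehicle libraries. All H2O2 libraries were higher, as for 12.6% of tested genes. F8 was again the highest with H2O2, but here F8, and not M9, was the lowest with vehicle. The means were 309 ± 40.0 in H2O2 and 41.9 ± 22.5 in vehicle (SD, n = 3 each), a ratio of 7.37 and a log2 fold change of 2.98 (SE 0.45), at rank 19 of 12171. Leaving out each library in turn kept the log2 fold change between 2.32 and 2.85 at 1 ng and between 2.62 and 3.37 at 100 pg.

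At 10 pg CLEAR no longer kept Alox5, and its values come from the RAW table. They were 805, 696 and 585 normalized counts in H2O2 libraries of F5, F8 and M9, against 0, 0 and 237 in vehicle libraries. Every H2O2 library was above every vehicle library, as for 5.73% of the 17671 genes tested in that table. The reads behind them were 753, 704 and 632 with H2O2, and 0, 0 and 278 with vehicle. A library at 0 allows up to 3 reads, or 2.55 to 3.21 normalized counts at this input, which covers counting error only. The ratio of the means, 8.81, rests on M9 as the one vehicle library with reads, where H2O2 stood over vehicle by a ratio of 2.47. A fitted log2 fold change is not given, because it depends on the pseudocount where libraries are at 0. In the RAW table at 10 pg, limma called 0 genes (0%) at an adjusted p of 0.05 and 1093 at an unadjusted p of 0.05. In the CLEAR table it called 0 of 6356 (646 unadjusted), edgeR 0 and DESeq2 91.

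**Figure D1:**
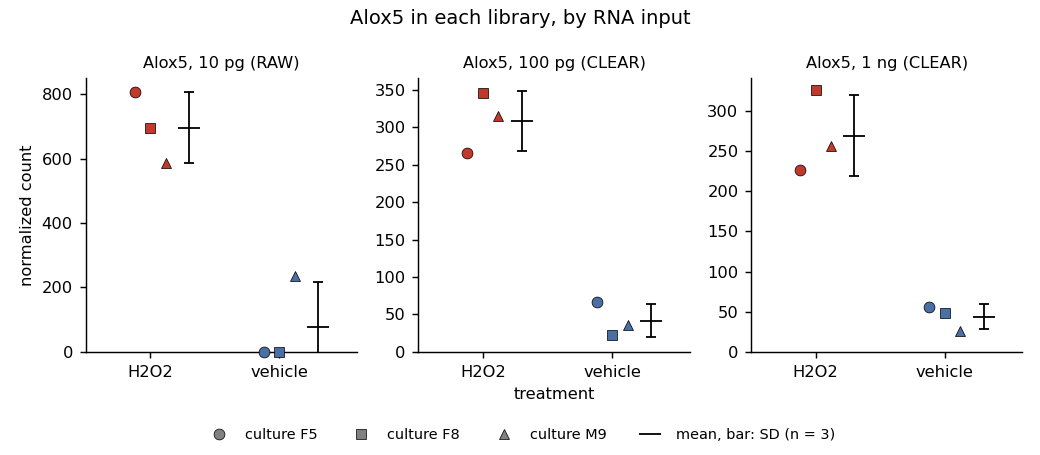
Normalized counts of Alox5 (vertical axis, a separate scale per panel) in the H2O2 and vehicle libraries at inputs of 10 pg, 100 pg and 1 ng, with symbols for cultures F5, F8 and M9 and a bar for mean ± SD (n = 3; the bar of vehicle at 10 pg runs below 0 and is clipped there). The H2O2 libraries lie above the vehicle libraries in every panel, at 226 to 325 against 26.3 to 56.5 at 1 ng, and 2 vehicle libraries are at 0 at 10 pg.

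Leukocyte markers were looked at beside Alox5 because it is a leukocyte enzyme. Of 15 microglia and macrophage markers, 13 had a read at 1 ng and 1 was kept by CLEAR. The marker kept was P2ry12 (log2 fold change 0.02, SE 0.68, adjusted p = 0.984, limma). The summed level of the 15 was 17.6 to 20.0 CPM in H2O2 libraries and 12.5 to 14.1 CPM in vehicle libraries, ranges that did not overlap at 1 ng. Csf1r, the receptor for colony-stimulating factor 1, made up 68.3% of that sum, while Tyrobp and C1qa were at 0 in all 6 libraries. At 100 pg the summed ranges overlapped, at 12.4 to 22.5 CPM with H2O2 and 14.3 to 17.4 CPM with vehicle, and 8 of the 15 markers were at 0. Of 10 neutrophil and mast cell markers, 6 had a read at 1 ng. They summed to 13.96 to 24.3 CPM in H2O2 libraries and 24.4 to 29.8 CPM in vehicle libraries. These ranges did not overlap either, but here H2O2 was the lower group. The stem cell factor receptor Kit took 96.3% of that sum and was not called (log2 fold change -0.62, SE 0.21, adjusted p = 0.0822, limma). Among single genes tested at 1 ng, all H2O2 libraries were higher for 18.1% and lower for 19.7%. S100a8, Elane, Mcpt4 and Tpsb2 were at 0. Endothelial and pericyte markers, of which 6 of 7 had a read, summed to 3.05 to 6.71 CPM with H2O2 and 2.68 to 3.09 CPM with vehicle. The part of these markers in the Alox5 difference was not tested.

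Alox5ap encodes FLAP, without which 5-lipoxygenase makes little leukotriene in cells (chromosome 5, 149264767-149288153, plus strand, with 189 exon bases shared with the opposite-strand gene Gm19719). At 1 ng it had 0, 2 and 2 reads in H2O2 libraries of F5, F8 and M9, against 0, 0 and 0 in vehicle libraries. At 100 pg it had 0, 0 and 0 reads with H2O2, against 13, 0 and 0 with vehicle, and at 10 pg no library had a read. The gene was thus under the mean of 1 normalized count set for the test at 1 ng and 10 pg, and passed it at 100 pg through a single vehicle library. No fold is given, since at each input at least 1 group had no read.

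Lta4h makes leukotriene B4 by hydrolysis and also acts as an aminopeptidase on peptides (chromosome 10, 93453411-93484875, plus strand, with no shared exon base). It had the highest level of the 7 and was the only member that CLEAR kept at every input. At 1 ng its normalized counts were 920, 1289 and 1151 in H2O2 libraries of F5, F8 and M9, against 1561, 1472 and 1477 in vehicle libraries. All H2O2 libraries were below all vehicle libraries, F5 the most, as was the case for 19.7% of tested genes at that input. The log2 fold change was -0.44 (SE 0.13), with means of 1120 ± 186 and 1503 ± 50.3 (SD, n = 3 each) in H2O2 and vehicle. The limma fit did not call it, with the culture as a block (adjusted p = 0.0603, limma) or without it (adjusted p = 0.0616, limma).

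At 100 pg Lta4h was again lower in every H2O2 library, at 1269, 1344 and 1162 with H2O2, against 2118, 1693 and 1752 with vehicle (log2 fold change -0.55, SE 0.14). This absence of overlap held for 14.1% of genes at 100 pg. At 10 pg the values were 1375, 1517 and 862 with H2O2, against 1560, 1816 and 1851 with vehicle (-0.51, SE 0.34), where 8.43% of genes were lower in every H2O2 library. Limma called Lta4h at neither input. On the recovered reads DESeq2 called it at 1 ng and at 100 pg, and edgeR at no input.

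Ltc4s joins glutathione to leukotriene A4 and so opens the cysteinyl leukotriene arm (chromosome 11, 50236461-50238616, minus strand, with 268 exon bases shared with the opposite-strand gene Gm26542). It had 2, 3 and 1 reads at 1 ng in H2O2 libraries of F5, F8 and M9, against 0, 2 and 2 in vehicle libraries. At 100 pg the reads were 4, 19 and 0 with H2O2, against 0, 0 and 0 with vehicle, and at 10 pg 0, 0 and 0 with H2O2, against 12, 0 and 0 with vehicle. The groups overlapped at each input, and the group that held more reads changed between 100 pg and 10 pg although the RNA was the same.

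Pla2g4a encodes the calcium-dependent phospholipase A2 that supplies arachidonate to both branches (chromosome 1, 149829618-149961290, minus strand, with no shared exon base). At 1 ng its normalized counts were 131, 148 and 131 in H2O2 libraries of F5, F8 and M9, against 196, 193 and 218 in vehicle libraries. All H2O2 libraries were below all vehicle libraries, as was the case for 19.7% of tested genes at that input, with little spread within either group. The means were 137 ± 10.3 in H2O2 and 202 ± 13.6 in vehicle (SD, n = 3 each), and the log2 fold change was -0.56 (SE 0.16), between -0.63 and -0.51 with any 1 library left out. The limma fit over 13692 genes did not call it, close to the threshold (adjusted p = 0.0542, limma). On the recovered reads edgeR (adjusted p = 0.0478) and DESeq2 (adjusted p = 0.0195) did.

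At 100 pg Pla2g4a had 33.4, 191 and 187 normalized counts in H2O2 libraries of F5, F8 and M9, against 51.9, 188 and 259 in vehicle libraries. Both libraries of F5 were low, and the groups overlapped. The log2 fold change was -0.36 (SE 0.80) and took both signs when libraries were left out in turn, from -1.05 without vehicle F5 to 0.47 without H2O2 F5. At 10 pg, in the RAW table, the values were 0, 273 and 0 with H2O2, against 271, 710 and 256 with vehicle. There the groups overlapped by the H2O2 library of F8, and no fold is given because 2 libraries were at 0. Culture F8 showed no drop at 100 pg (ratio of H2O2 over vehicle 1.01), whereas F5 (0.64) and M9 (0.72) did. With the culture as a block the SE was 0.37, and limma did not call the gene (adjusted p = 0.629, limma). At 10 pg each H2O2 library lay below the vehicle library of its own culture. The direction seen at 1 ng was thus kept in F5 and M9 at 100 pg and in every culture at 10 pg. The size of the difference could not be resolved at either input.

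**Figure D2:**
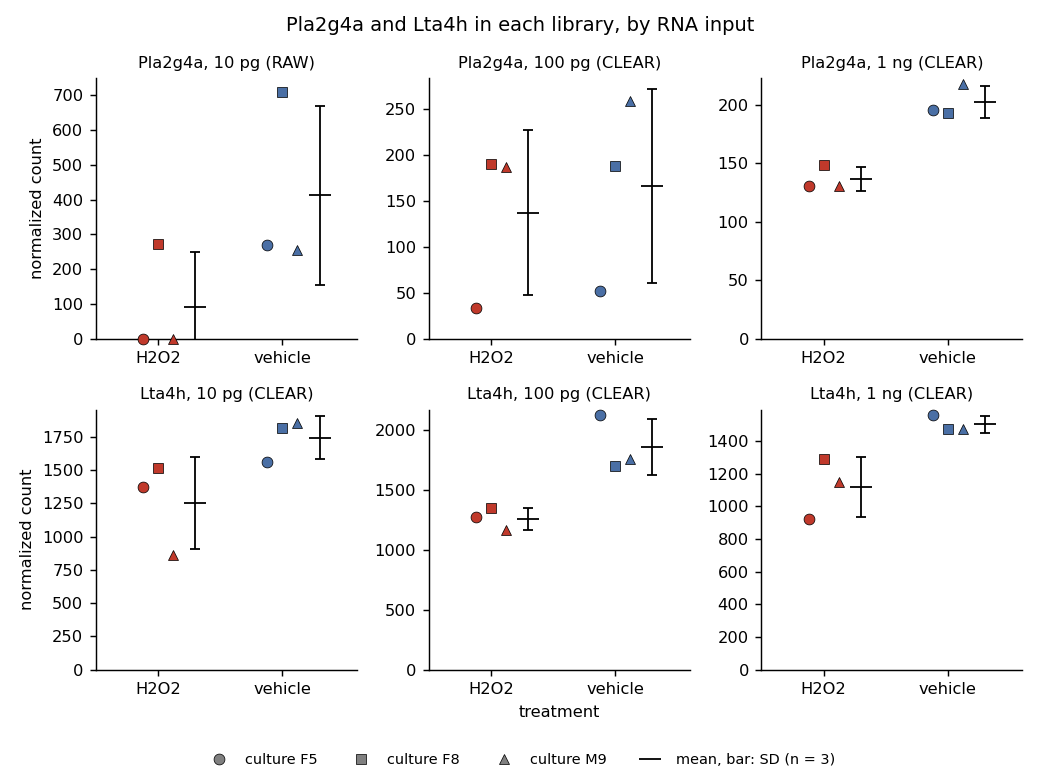
Normalized counts (vertical axis from 0, a separate scale per panel) of Pla2g4a (top) and Lta4h (bottom) in H2O2 and vehicle libraries at 10 pg, 100 pg and 1 ng, with symbols for cultures and a bar for mean ± SD (n = 3; clipped at 0 for Pla2g4a at 10 pg). Lta4h lies lower in all H2O2 libraries at each input, whereas Pla2g4a does so at 1 ng, at 131 to 148 against 193 to 218, and overlaps at 100 pg and 10 pg.

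The cyclooxygenases were barely read. Ptgs2, the inducible cyclooxygenase (chromosome 1, 150100031-150108227, plus strand), had 5, 6 and 5 reads at 1 ng in H2O2 libraries of F5, F8 and M9, against 8, 7 and 7 in vehicle libraries. As normalized counts these were 4.99, 6.13 and 5.26 with H2O2, against 8.49, 6.66 and 6.14 with vehicle, so the highest H2O2 value and the lowest vehicle value all but touched (log2 fold change -0.32, SE 0.45, not called). All H2O2 libraries were lower for 15.2% of the 22672 genes tested in the RAW table at that input. At 100 pg, 39 reads lay in the H2O2 library of M9 and 0 in the other libraries, and at 10 pg no library had a read.

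Ptgs1, the constitutive cyclooxygenase (chromosome 2, 36230426-36252272, plus strand, with 148 exon bases shared with the opposite-strand gene Gm43621), had 6, 0 and 0 reads at 1 ng in H2O2 libraries of F5, F8 and M9, against 4, 1 and 0 in vehicle libraries. F5 held most of the reads in both treatments, and the groups overlapped. At 100 pg the vehicle library of F5 had 11 reads and no other library had any, and at 10 pg there was none.

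With less RNA the 4 weakly read members, Alox5ap, Ltc4s, Ptgs1 and Ptgs2, were seen in fewer libraries. The mean number of reads in libraries that had any was higher at 100 pg than at 1 ng for each of them, and at 10 pg Ltc4s alone had reads, 12 in 1 library. Of 24 values (4 genes in 6 libraries), 16 were above 0 at 1 ng, 5 at 100 pg and 1 at 10 pg, while the most reads in any 1 library were 8, 39 and 12. The 6 libraries held 38 Ptgs2 reads at 1 ng, spread at 5 to 8 per library, and 39 at 100 pg, all in 1 library. Alox5 and Pla2g4a showed the same kind of change from 100 pg to 10 pg. Reads of Alox5 averaged 174 in 6 of 6 libraries at 100 pg and 592 in 4 of 6 at 10 pg. Those of Pla2g4a averaged 156 in 6 of 6 and 409 in 4 of 6. The 2 libraries at 0 were both vehicle for Alox5 and both H2O2 for Pla2g4a, so these averages mix the treatments differently. In H2O2 libraries alone, Alox5 reads summed to 909 at 100 pg and 2089 at 10 pg. Lta4h stayed in all 6 libraries at each input, with 1326, 1597 and 1564 reads on average at 1 ng, 100 pg and 10 pg.

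Levels of different genes were compared per length, as CPM per kb of exon. At 1 ng in H2O2 libraries Lta4h came first at 16.8 ± 2.98, followed by Alox5 at 5.98 ± 1.15 and Pla2g4a at 1.95 ± 0.148 (SD, n = 3). In vehicle libraries the order was Lta4h at 23.2 ± 0.779, Pla2g4a at 2.98 ± 0.246 and Alox5 at 1.00 ± 0.350, so Alox5 and Pla2g4a changed places between treatments. The ranges of these 3 genes did not overlap within either treatment. The per-length level of Alox5 was 2.69, 3.41 and 3.05 times that of Pla2g4a in H2O2 libraries of F5, F8 and M9, against 0.448, 0.395 and 0.188 times in vehicle libraries. At 100 pg the same quotients were 12.4, 2.82 and 2.62 with H2O2, against 2.00, 0.189 and 0.216 with vehicle, where the low Pla2g4a reads of F5 raised both of its values. Of all genes kept by CLEAR at 1 ng, 53.9% had a lower per-length level than Alox5 in H2O2 libraries and 21.03% in vehicle libraries.

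The other members were lower than these. In H2O2 libraries at 1 ng Ltc4s stood at 0.182 ± 0.0882 CPM per kb, Ptgs2 at 0.109 ± 0.0117, Alox5ap at 0.0897 ± 0.0778 and Ptgs1 at 0.0461 ± 0.0799 (SD, n = 3), and neighbours in this order overlapped. In vehicle libraries Ptgs2 stood at 0.146 ± 0.0246, Ltc4s at 0.114 ± 0.0987, Ptgs1 at 0.0419 ± 0.0539 and Alox5ap at 0, again with overlap between neighbours. In H2O2 cultures the range of Alox5 (4.91 to 7.20 CPM per kb) thus lay above those of its partner Alox5ap (0 to 0.139) and of the synthase Ltc4s (0.0973 to 0.273).

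**Figure D3:**
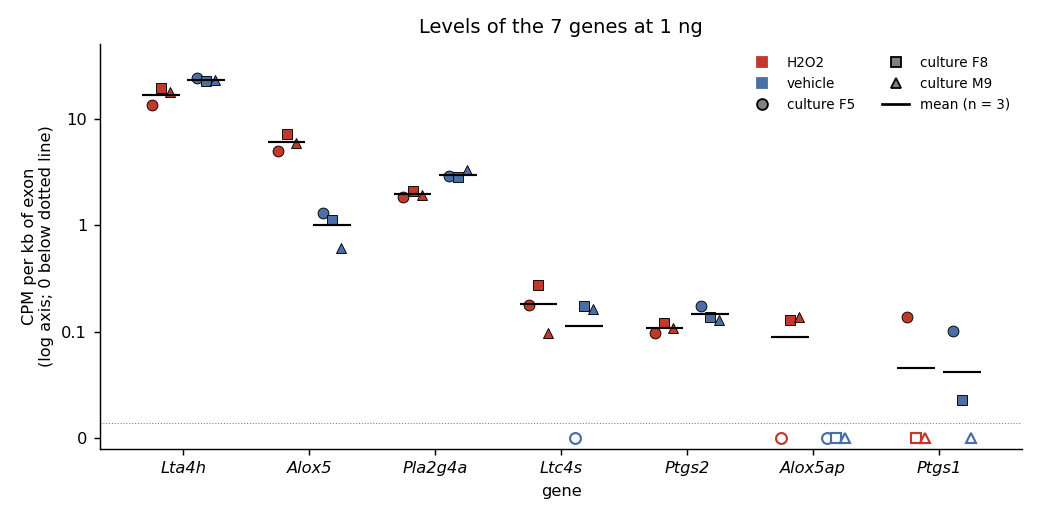
CPM per kb of exon (vertical log axis, with values of 0 drawn as open symbols under the dotted line) of the 7 genes in H2O2 (red) and vehicle (blue) libraries at 1 ng, with symbols for cultures and a line for the mean (n = 3). Alox5 lies above Pla2g4a in H2O2 libraries, at 5.98 against 1.95, and below it in vehicle libraries, at 1.00 against 2.98, while Ltc4s, Ptgs2, Alox5ap and Ptgs1 lie below 0.3 in every library.

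To see whether the wider pathway moved, 83 other genes of arachidonate release, lipoxygenases, leukotriene processing, prostanoid synthesis, prostaglandin breakdown, epoxygenases and receptors were examined. At 1 ng, 36 of them were tested in the CLEAR table, of which 1 rose, 2 fell and 33 did not pass, which is 8.33% called beside 12.7% of all genes. Their median log2 fold change was 0.14, against 0.02 for all genes. A further 25 were tested in the RAW table alone, where none was called, 22 were under the mean of 1 normalized count, and 3 of these had no read. With the culture as a block, 5 rose and 2 fell, which is 19.4% called beside 18.3% of all genes. DESeq2 called 8 (22.2%, beside 20.2% of all genes) and edgeR 3 (8.33%, beside 1780 of 13692 genes). The count was 0 without any 1 vehicle library, 0 rose and 2 fell without the H2O2 library of F5, and 2 rose and 1 fell without that of F8 or of M9.

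Ptges3, a prostaglandin E synthase that is also the p23 cochaperone of Hsp90, fell to 1271, 1205 and 1283 normalized counts in H2O2 libraries of F5, F8 and M9, against 1769, 1772 and 2056 in vehicle libraries. Its log2 fold change was -0.57 (SE 0.09, adjusted p = 0.0220, limma), and it was lower in all 3 cultures at 100 pg as well (-0.46, SE 0.12, adjusted p = 0.0860, limma) without passing there. Ephx1, the microsomal epoxide hydrolase, rose to 9114, 7893 and 6664 in H2O2 libraries, against 5123, 5993 and 4342 in vehicle libraries (log2 fold change 0.62, SE 0.15, adjusted p = 0.0412, limma). It was the most abundant gene of its role per length. At 100 pg its log2 fold change was 0.65 (SE 0.15, adjusted p = 0.0693, limma, and 0.0320 with the culture as a block). Plaa, a phospholipase A2 activating protein, fell to 1279, 1287 and 1286 in H2O2 libraries, against 1603, 1506 and 1625 in vehicle libraries (-0.30, SE 0.08, adjusted p = 0.0491, limma), a call that was lost with the block (adjusted p = 0.0580) and at 100 pg turned to a log2 fold change of 0.10 (SE 0.16) without passing.

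Among the 12 genes of arachidonate release that were tested at 1 ng, 1 fell and 11 did not pass, with a median log2 fold change of -0.02. Of 8 genes of leukotriene processing and export, limma called none without the block, beside 12.7% of all genes. With the block it called 3 as higher, beside 18.3% of all genes called in either direction. The median log2 fold change of the 8 was 0.72. DESeq2, without a block, called the same 3 genes and edgeR none of them. They were chosen after their values were seen and were Ptgr1, which inactivates leukotriene B4 and prostaglandins (0.95, SE 0.30, adjusted p = 0.0694 by limma, 0.0206 with the block), Mgst3, a microsomal glutathione transferase (0.75, SE 0.23, adjusted p = 0.0700 and 0.0441), and Cyp4f13, a cytochrome P450 (0.71, SE 0.22, adjusted p = 0.0696 and 0.0425). Ptgr1 had 459, 280 and 210 normalized counts in H2O2 libraries of F5, F8 and M9, against 195, 141 and 134 in vehicle libraries. At 1 ng the groups did not overlap for 4 genes of the role, these 3 and Ggt5. All were higher in H2O2, as for 18.1% of tested genes. Over the 36 pathway genes, 6 lay higher and 5 lower without overlap. F5 was highest in the H2O2 group for Ptgr1 and Mgst3. The most abundant gene of that role per length, Cotl1, an actin-binding protein that also binds 5-lipoxygenase, had a log2 fold change of 0.32 (SE 0.22, adjusted p = 0.359, limma).

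Of 7 prostanoid synthase genes, Ptges3 fell and 6 did not pass, with a median of -0.12, and Akr1b3, an aldose reductase, passed in limma with the block (-0.54, SE 0.15, adjusted p = 0.0554 without it and 0.0383 with it) and in DESeq2 (adjusted p = 0.0231). Of 2 genes of prostaglandin breakdown, Ptgr2, which reduces 15-keto-prostaglandins, passed in limma with the block (0.62, SE 0.17, adjusted p = 0.0535 without it and 0.0388 with it), in DESeq2 (adjusted p = 0.0113) and in edgeR (adjusted p = 0.0497), and Zadh2, which acts on the same kind of substrate, had a log2 fold change of -0.27 (SE 0.15, adjusted p = 0.255, limma). Akr1b3 and Ptgr2 too were chosen after their values were seen. Of 5 genes of the epoxygenase arm 1 rose, Ephx1, with a median of 0.39. Of 16 receptors 2 were tested in the CLEAR table and neither passed. The most abundant of them per length, Ptger1, a prostaglandin E2 receptor, was at -0.04 (SE 0.23, adjusted p = 0.929, limma).

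None of the 6 other lipoxygenase genes could be tested in the CLEAR table at any input. Alox12, the most abundant of them per length at 1 ng, had 12.0 normalized counts in the H2O2 library of F5 and 0 in the other libraries. Alox8 was nearly level with it (0.0436 against 0.0439 CPM per kb). Its 10 reads were spread over all 6 libraries, at 0.877 to 2.86 normalized counts (log2 fold change -0.28, SE 0.62, not called). At 100 pg 31 pathway genes were tested and none was called (median 0.13), while 5 passed an unadjusted p of 0.05 (16.1%, beside 21.02% of all genes). DESeq2 called 3 (9.68%, beside 9.32%), edgeR 0 and the fit with the block 1 (3.23%, beside 4.07%). At 10 pg 17 were tested and none was called (median 0.20), while 2 passed an unadjusted p of 0.05 (11.8%, beside 10.2%) and neither DESeq2 nor edgeR called any.

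**Figure D4:**
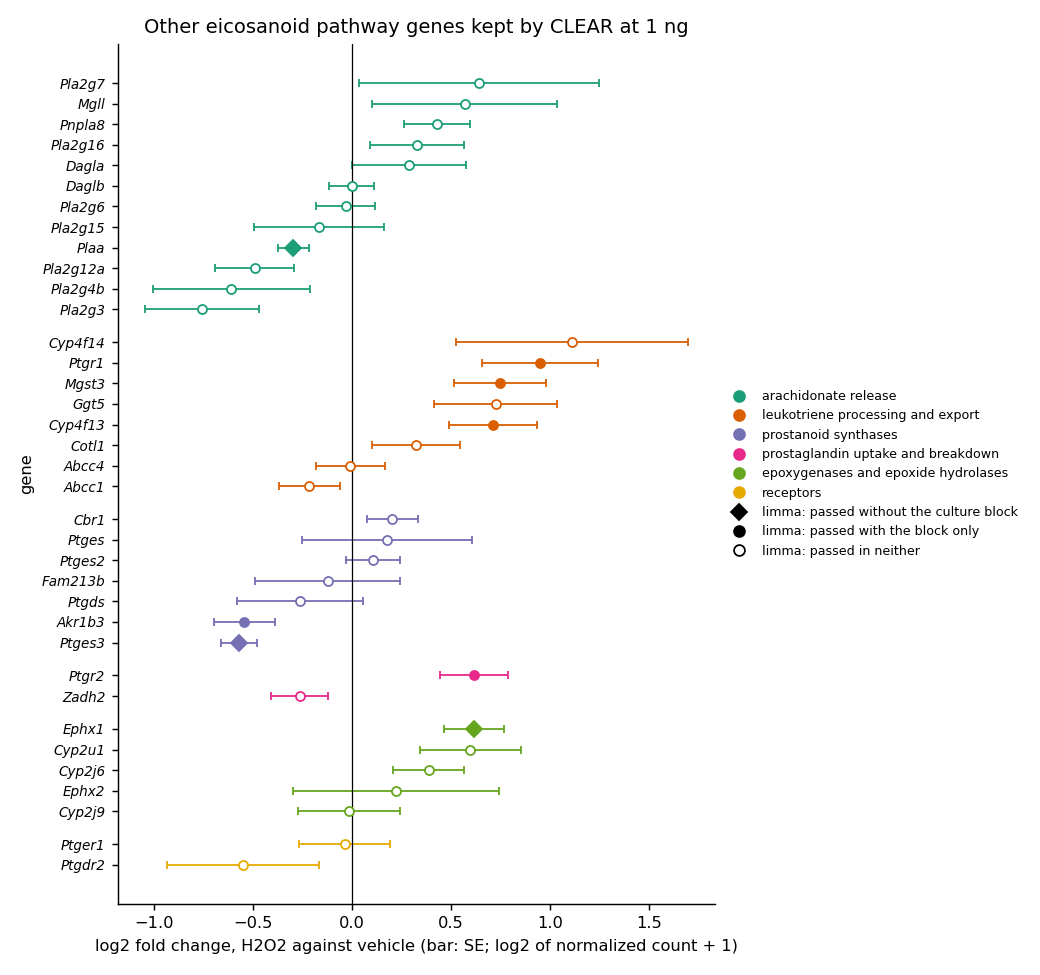
Log2 fold change of H2O2 against vehicle (horizontal axis, bar: SE, on the log2(normalized count + 1) scale) at 1 ng for the 36 other pathway genes kept by CLEAR, one per line and coloured by role, with diamonds for genes that passed in limma without the culture block and filled circles for those that passed in limma with it only. Ephx1 at 0.62 lies to the right of 0 and Ptges3 at -0.57 and Plaa at -0.30 to the left, and most genes pass in neither limma fit.

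The genes whose values over the 6 libraries at 1 ng were most like those of Alox5 were ranked by Pearson r on the log2 scale among the 12435 CLEAR genes with a mean of at least 10. They were Ubl3, a membrane-anchored ubiquitin-like protein (r = 0.998), Fbxw9, an F-box protein (0.997), Ncstn, the gamma-secretase subunit nicastrin (0.995), Svop, a synaptic vesicle protein (0.995), and Pros1, the anticoagulant protein S (0.994). The 6 points fall into the H2O2 and the vehicle group, so r carries the split between treatments. Over the 6 libraries of the same RNA at 100 pg r was 0.947, 0.984, 0.957, 0.851 and 0.948 for the 5 genes in that order. Their log2 fold changes at 1 ng, 0.60, 1.37, 0.41, 1.54 and 0.88, were all below the 2.64 of Alox5. Fbxw9, for example, had 1116, 1232 and 1155 normalized counts in H2O2 libraries of F5, F8 and M9, against 502, 487 and 377 in vehicle libraries. As with Alox5, F8 was the highest of the H2O2 libraries and M9 the lowest of the vehicle libraries. Fbxw9 was chosen by r over these same libraries, so nothing further is read from this shared order. At 100 pg F5 was the highest H2O2 library for Fbxw9 (1428, against 1336 in F8), whereas F8 was the highest for Alox5. F8 was the lowest vehicle library for both genes there.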

How the data were processed

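RNA of NSC cultures was profiled in 18 libraries. The authors trimmed reads, discarded those of ribosomal RNA, mitochondrial DNA and PhiX, aligned what remained to mouse GRCm38 (HISAT2 2.0.6) and counted them per gene without strand (featureCounts, Subread). CASAVA 1.8.2 and, for these mouse data, the build GRCh38 also stand in the submitters' processing notes. Per gene and library, the authors deposited a normalized count (a signal, here reads over a size factor that they set within each input), in a table filtered by CLEAR and an unfiltered one (RAW). CLEAR keeps genes whose reads cover their transcripts evenly enough to be quantified. Dividing by the smallest step of a library gave whole reads for 100% of values (tolerance 1e-08). Columns name treatment, culture and input and were assigned to groups by these names.

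Within each input, limma 3.58.1 under R 4.3.3 (eBayes, mean trend) tested H2O2 against vehicle on log2(normalized count + 1). The test was 2-sided, and p-values were adjusted by Benjamini-Hochberg over the whole table (threshold 0.05). This scale understates fold changes of low genes. In CLEAR, genes at 0 in all 6 libraries were left out. In RAW, used where CLEAR lacks a gene, a mean of at least 1 was required. On recovered reads DESeq2 1.42.0 called 2766, 1134 and 91 genes at 1 ng, 100 pg and 10 pg, and edgeR 4.0.16 (quasi-likelihood) 1780, 169 and 0. Fold changes stated for H2O2 are over vehicle. The p-values measure the spread between the libraries of these cultures, which also holds that of dilution, preamplification and library preparation. They do not measure the spread between lines, since F5 and F8 come from the same line. Scripts were tested on simulated data.

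The column names give the same cultures in both treatments. Deviations from the group means correlated within a culture at 1 ng (r = 0.122 in F5, 0.101 in F8 and 0.341 in M9), less at 100 pg (0.0771, 0.0262 and 0.170) and hardly at 10 pg (-0.0293, 0.0103 and 0.0341). Between cultures the highest r at 1 ng was 0.0962, of H2O2 F5 with vehicle F8. The pairing therefore rests on the names, and each comparison was also fitted with culture as a block. Other alternatives were TMM scaling, pseudocounts of 0.5 and 5, other filters, and each library left out. The members and gene lists were chosen with earlier results of these data known. Named are the 7 members, pathway genes that passed at any input, the gene of each role with the highest level per length, and the 5 genes most like Alox5. Alox8 is named beside Alox12 because their levels were nearly the same. Itgam, whose symbol is repeated, was left out of the microglia markers.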

Additional observations from a re-analysis of the deposited data

How the results depend on the processing

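The log2 fold change of Alox5 stayed between 2.53 and 2.66 at 1 ng and between 2.84 and 2.99 at 100 pg under the other scalings, filters, pseudocounts, tools and the culture block, and those of Lta4h and Pla2g4a kept their sign at 1 ng. Counts of calls moved far more. Pathway genes called at 1 ng (3) were 8 with DESeq2 and 7 with the culture as a block, and 0 to 3 with each library left out, 0 without any 1 vehicle library. At 100 pg (0) they were 3 with DESeq2 and 1 with the block. Over all genes, calls at 1 ng (1735) were 2766 with DESeq2, 2506 with the block and 0 to 1667 with libraries left out, 638 without H2O2 F8 and 0 without any 1 vehicle library. At 100 pg (184) they were 1134 with DESeq2, 495 with the block, 14 in RAW, 0 in RAW with no filter and 0 to 292 with libraries left out, and at 10 pg (0) 91 with DESeq2. The following RAW fits were chosen after seeing the data: calls at 1 ng (1550) were 2566 with the block and 0 to 1206 with libraries left out (1004 without H2O2 F5, 248 without H2O2 F8, 5 without vehicle M9), and at 100 pg (14) 2 with the block and 0 with no filter or with any 1 library left out. The cause was not tested. Few reads limit what can be said of Alox5ap, Ltc4s, Ptgs1 and Ptgs2 at all inputs, and libraries at 0 (2 of 6 for each gene) what can be said of Alox5 and Pla2g4a at 10 pg. The pairing by culture changed the call of no member and, of the pathway genes, those named in the results.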
